A study of Mus musculus with 12 samples.

Results

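The 10 genes described here were chosen as genes of the non-blood compartment of bone marrow or of factors made there. They were taken by symbol from a table of 24415 genes, and some are also expressed by blood cells. The members are Alpl, Col1a1, Bglap, Sparc and Spp1, which act in bone matrix, and Sp7, a transcription factor of osteoblasts. The others are Lepr, a receptor that marks stromal cells, and the ligands Kitl, Csf1 and Il7. The rule that picks the rows of all 10 is the symbol alone, but the members were chosen with earlier results of these data known. Polyadenylated RNA of whole bone marrow cells was sequenced from female C57BL/6J mice that were 8 weeks old. Of the 12 libraries, 4 came from mice with a flame burn and an anti-G-CSF antibody (burn anti-G-CSF, replicates 9 to 12), 4 from mice with a flame burn and an isotype antibody (burn isotype, replicates 5 to 8), and 4 from sham-treated mice with the isotype antibody (sham isotype, replicates 1 to 4). G-CSF is the cytokine granulocyte colony-stimulating factor. Dosing with antibody started 12 hours ahead of the burn or sham procedure, was repeated with it and went on every day until harvest on day 7. All groups therefore received an antibody, and a sham group with anti-G-CSF was not analysed here. The labels name no transgene or other allele, and they do not say whether each library was 1 mouse or how the marrow was released from bone.

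Bone marrow is held by a stroma of osteoblasts, which deposit and mineralise bone matrix, and of perivascular reticular cells that express the leptin receptor. In mice these reticular cells are a main source of stem cell factor, the Kitl product, and osteoblast-lineage and stromal cells also supply other factors on which blood cells depend. Given as a drug, G-CSF is known to lower osteoblast genes and several niche factors in mouse marrow. Neutrophils and their precursors carry the G-CSF receptor, and neutrophil numbers rise in response to G-CSF. Whole marrow is mostly blood cells, so stromal RNA is a small part of it, and in such bulk samples fewer cells of a type and less RNA per cell cannot be told apart.

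Values are CPM, read counts scaled to library size with trimmed mean of M values (TMM) factors, and 7 of the 10 members had enough counts to be tested. Log2 fold changes are given ± SE, and a gene was called when its Benjamini-Hochberg adjusted p in edgeR's quasi-likelihood test, over 15283 genes, was under 0.05. After burn, Alpl and Csf1 were lower and Spp1 was higher. With the anti-G-CSF antibody after burn, Alpl, Kitl and Sparc were higher and Spp1 was lower than with isotype, while Csf1 differed little from the burn isotype level. Of these, the Sparc difference was not called once the brain transcripts that vary between the libraries entered the fit, nor was the Kitl difference. The level of these transcripts also differed between the groups, so that fit cannot separate group from brain RNA.

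Those transcripts were present in all 12 libraries although the source is labelled as whole bone marrow cells. Camk2a, a kinase subunit of forebrain neurons, was at 280.6, 172.8, 174.1 and 343.9 CPM in burn anti-G-CSF libraries, against 118.5, 67.2, 186.1 and 159.1 CPM in burn isotype libraries and 98.3, 106.1, 117.4 and 103.1 CPM in sham isotype libraries. Replicates 9 and 12 were highest. The summed level of 18 brain genes was 963 to 1813 CPM in burn anti-G-CSF, 558 to 1090 CPM in burn isotype and 644 to 737 CPM in sham isotype libraries, with 0 of the 18 genes at 0 in all libraries. For 7 neutrophil genes the sums were 24331 to 30859 CPM in burn anti-G-CSF, 72645 to 87412 CPM in burn isotype and 38215 to 49385 CPM in sham isotype libraries. Total counts were 18780399 to 25708084 per library.

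**Figure D1:**
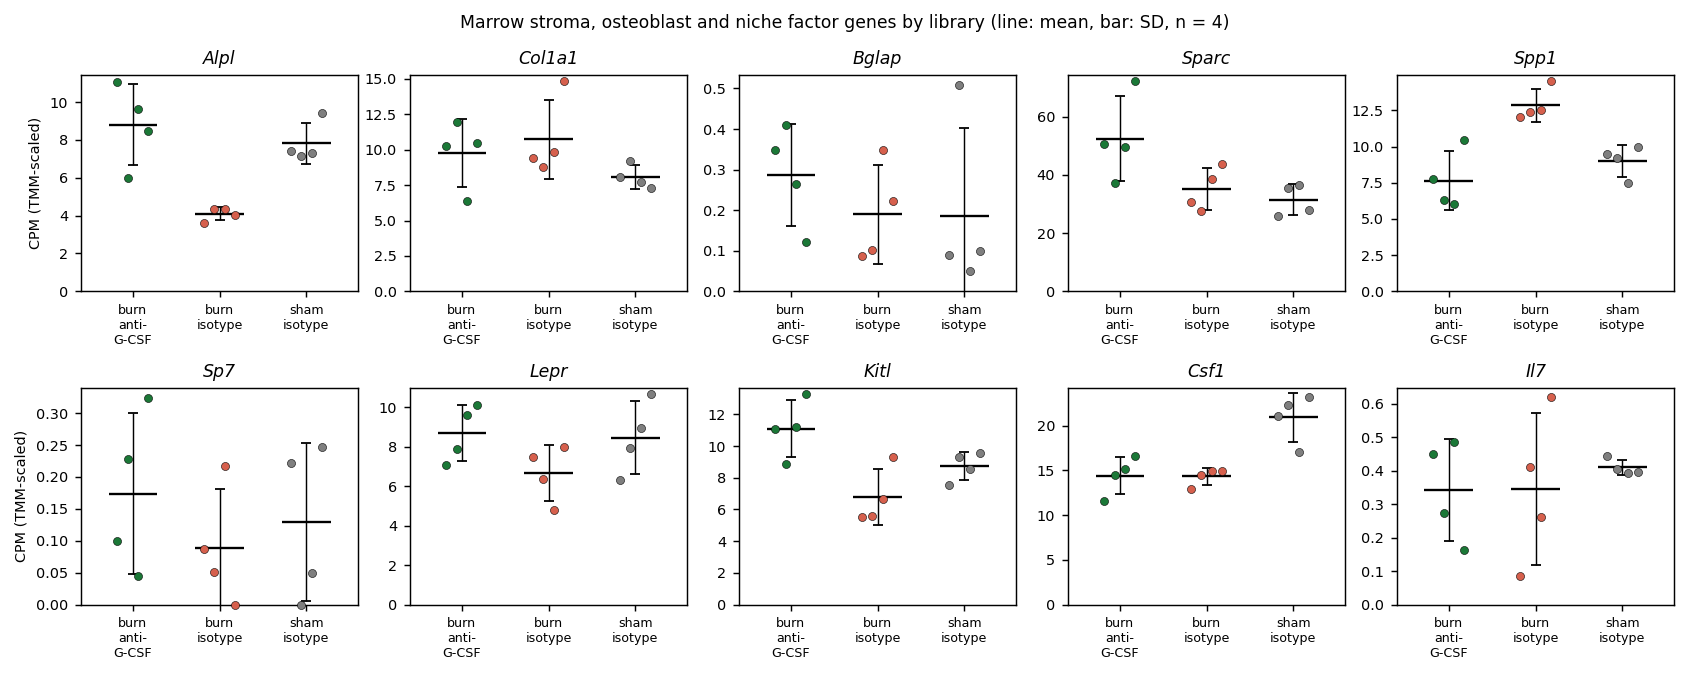
TMM-scaled CPM of the 10 members, 1 panel each, with 4 libraries per group as points and the group mean ± SD as bars. Alpl is lower in all 4 burn isotype libraries than in every library of the other groups, Spp1 is higher in them, and Csf1 separates the sham isotype libraries from both burn groups.

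Alpl encodes tissue-nonspecific alkaline phosphatase, the enzyme by which osteoblasts make phosphate available for mineral, and it spans chromosome 4, 137741731 to 137766475, in mm10. It was at 11.1, 6.01, 9.62 and 8.49 CPM in burn anti-G-CSF libraries, against 3.63, 4.36, 4.34 and 4.03 CPM in burn isotype libraries. In sham isotype libraries Alpl was at 7.39, 7.16, 7.31 and 9.44 CPM. The burn isotype libraries were the lowest of the 12, with no overlap with either other group. Alpl fell after burn with isotype (burn isotype against sham isotype, log2 fold change -0.94 ± 0.20, adjusted p = 0.00199) and was higher with the antibody (burn anti-G-CSF against burn isotype, 1.10 ± 0.19, adjusted p = 2.70e-04, 2.15-fold). Burn anti-G-CSF and sham isotype libraries overlapped, with a difference of 0.17 ± 0.19 (95% interval -0.23 to 0.57, adjusted p = 0.650). With the brain score in the fit both called differences of Alpl held, at -0.96 ± 0.19 (adjusted p = 5.99e-04) and 1.01 ± 0.24 (adjusted p = 0.00533).

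Resident macrophage genes moved in the same directions as Alpl. Of 8 such genes, 7 were called lower in burn isotype than in sham isotype libraries, beside 9.92% of all genes. In burn anti-G-CSF against burn isotype 7 were called higher, beside 17.7% of all genes. Both comparisons use the same burn isotype libraries. Their summed level was 669 to 855 CPM in burn anti-G-CSF, 405 to 522 CPM in burn isotype and 715 to 883 CPM in sham isotype libraries, and none of the 8 was at 0 in all libraries. Alpl is also expressed by blood cells, neutrophils among them. The 7 neutrophil genes went the opposite way to Alpl. All 7 were called higher in burn isotype than in sham isotype libraries, beside 11.1% of all genes. All 7 were called lower in burn anti-G-CSF than in burn isotype libraries, beside 16.9% of all genes. The part of these cell types in the Alpl result was not tested.

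Col1a1 encodes the alpha 1 chain of type I collagen, the main protein of bone matrix, and spans chromosome 11, 94936224 to 94953042. It was at 10.3, 12.0, 6.40 and 10.5 CPM in burn anti-G-CSF, 9.38, 8.77, 9.85 and 14.9 CPM in burn isotype, and 8.10, 9.24, 7.70 and 7.27 CPM in sham isotype libraries. All 3 groups overlapped. Burn isotype against sham isotype gave a log2 fold change of 0.41 ± 0.20 (95% interval -0.01 to 0.83, adjusted p = 0.174), and burn anti-G-CSF against burn isotype gave -0.13 ± 0.20 (-0.55 to 0.28, adjusted p = 0.636). Burn anti-G-CSF against sham isotype gave 0.28 ± 0.20 (-0.15 to 0.70, adjusted p = 0.437). These intervals do not show that collagen RNA stayed level.

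Sparc encodes osteonectin, a collagen-binding matrix protein that is also made by endothelium, megakaryocytes and glia, and spans chromosome 11, 55394159 to 55420080. It was at 50.6, 37.1, 49.5 and 72.1 CPM in burn anti-G-CSF, 30.7, 27.5, 38.6 and 43.6 CPM in burn isotype, and 25.99, 35.4, 36.4 and 27.98 CPM in sham isotype libraries. Replicate 12, with the highest Camk2a level, also had the highest Sparc level. Sparc was higher in burn anti-G-CSF than in burn isotype libraries, which overlapped (log2 fold change 0.58 ± 0.19, adjusted p = 0.0359), and higher than in sham isotype libraries, which did not (0.74 ± 0.20, adjusted p = 0.0319). Burn isotype against sham isotype gave 0.16 ± 0.20 (95% interval -0.26 to 0.59, adjusted p = 0.635).

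The called Sparc differences went with the brain transcripts. With the brain score as a covariate they were 0.07 ± 0.15 (adjusted p = 0.809) for burn anti-G-CSF against burn isotype and 0.09 ± 0.17 (adjusted p = 0.998) against sham isotype. Within groups Sparc rose by 0.60 ± 0.12 on the log2 scale for each log2 unit of the brain score (adjusted p = 0.00150). The call against burn isotype was lost without replicate 5, 6, 9 or 12 (adjusted p of 0.113, 0.0755, 0.0688 and 0.0867) and with only the 2 groups fitted (0.54, adjusted p = 0.0683), and the call against sham isotype without replicate 1, 2, 4, 9 or 12 (0.100, 0.0650, 0.0811, 0.0890 and 0.0781), and both without a filter on low counts (0.0683 and 0.0595). Without both replicates 9 and 12 the differences were 0.31 ± 0.18 (adjusted p = 0.286) and 0.46 ± 0.18 (adjusted p = 0.367). Megakaryocyte genes summed to 597 to 827 CPM in burn anti-G-CSF, 330 to 720 CPM in burn isotype and 660 to 852 CPM in sham isotype libraries, and endothelial genes to 83.7 to 117 CPM in burn anti-G-CSF, 72.0 to 97.7 CPM in burn isotype and 85.4 to 99.7 CPM in sham isotype libraries. Their part in the Sparc result was not tested.

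Spp1 encodes osteopontin, a secreted phosphoprotein of bone matrix that binds integrins and CD44 and is also made by macrophages. It spans chromosome 5, 104436192 to 104441053, and shares 309 exon bases, or 18.75% of its exon length, with Gm42793 on the same strand in GENCODE M21, so reads there are uncertain. Spp1 was at 7.79, 6.29, 6.00 and 10.5 CPM in burn anti-G-CSF, 12.0, 12.4, 12.5 and 14.5 CPM in burn isotype, and 9.52, 9.19, 7.45 and 9.98 CPM in sham isotype libraries. The 4 burn isotype libraries were the highest of the 12. Spp1 was lower with the antibody after burn, at a log2 fold change of -0.75 ± 0.17 (adjusted p = 0.00294) and -1.02 ± 0.20 with the brain score in the fit (adjusted p = 0.00120). Its rise after burn with isotype was smaller, at 0.51 ± 0.17 (adjusted p = 0.0452), and the call was lost on leaving out any 1 of replicates 1 to 9, with values of 0.41 to 0.55 and adjusted p of 0.0567 to 0.157. It was also lost with upper quartile scaling (0.49), library size alone (0.41) and no filter (0.51). Burn anti-G-CSF against sham isotype gave -0.24 ± 0.18 (95% interval -0.61 to 0.13, adjusted p = 0.438). In both comparisons with burn isotype all 7 neutrophil genes were called in the direction of Spp1. Of 8 resident macrophage genes, 7 were called in the opposite direction, and the shares of all genes are those given with Alpl. The part of these cell types in the Spp1 result was not tested.

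Bglap and Sp7 were too low to test. Bglap encodes osteocalcin, the vitamin K-dependent protein of mature osteoblasts, and spans chromosome 3, 88383495 to 88384466. It had 7, 9, 6 and 3 counts in burn anti-G-CSF, 2, 2, 8 and 5 in burn isotype, and 2, 10, 1 and 2 in sham isotype libraries. The neighbouring paralogs Bglap2 and Bglap3 are near-identical in sequence, and the counting could split reads between them. Sp7 encodes osterix, which osteoblasts need to form, and spans chromosome 15, 102357177 to 102366271. It had 2, 5, 1 and 8 counts in burn anti-G-CSF, 2, 1, 5 and 0 in burn isotype, and 5, 0, 1 and 5 in sham isotype libraries. A count of 0 allows up to 0.133 CPM in the burn isotype library and 0.152 CPM in the sham isotype library, counting error only. These 2 defining osteoblast genes were thus near 0 in every group, and a difference in either was not detectable at this depth.

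Upstream sequence is shown for Alpl and Spp1, the matrix genes called in both comparisons with burn isotype, and for osteocalcin, because RUNX2, the master regulator of osteoblasts, is known to act on the osteocalcin promoter in mice. RefSeq (GRCm38.p6) gave promoter entries for 7 of the 10 members, with 10 start sites among them, and not for Col1a1, Sp7 and Il7. The 250 bases before each start were searched on both strands for the core RUNX motif TGTGGT, the STAT motif TTCNNNGAA and the GATA motif AGATAA, which do not overlap here. Capitals mark the RUNX match, which reads ACCACA on the strand shown.
Bglap, chr3:88384467-88384716, minus strand: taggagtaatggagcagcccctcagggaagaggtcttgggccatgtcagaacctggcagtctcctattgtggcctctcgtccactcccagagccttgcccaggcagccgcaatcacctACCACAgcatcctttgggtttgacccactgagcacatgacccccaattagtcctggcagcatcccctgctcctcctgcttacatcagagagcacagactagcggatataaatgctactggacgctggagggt
Spp1, upstream start, chr5:104434861-104435110, plus strand: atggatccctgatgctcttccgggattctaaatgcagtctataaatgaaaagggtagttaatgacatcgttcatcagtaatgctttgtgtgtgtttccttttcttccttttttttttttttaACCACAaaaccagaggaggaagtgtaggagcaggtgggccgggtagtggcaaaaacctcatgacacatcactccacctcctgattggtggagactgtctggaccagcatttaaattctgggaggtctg
Alpl, start of the deposited gene, chr4:137766476-137766725, minus strand: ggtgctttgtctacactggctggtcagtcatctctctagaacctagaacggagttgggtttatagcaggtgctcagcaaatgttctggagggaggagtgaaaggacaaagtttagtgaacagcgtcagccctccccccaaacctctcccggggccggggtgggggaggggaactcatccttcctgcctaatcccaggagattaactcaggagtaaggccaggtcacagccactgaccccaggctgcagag
The Bglap match begins 132 bases before the start and the Spp1 match 128 bases before its upstream start, which lies 1081 bases upstream of the start in the deposited table. The Spp1 window at the deposited start, not shown, held no match. Only the Bglap window and the upstream Spp1 window, 2 of 10, held the RUNX letters. These letters stand in 14.05% of 32851 promoter windows in the table. The STAT letters stand in 7.02% and the GATA letters in 9.988% of those windows and in none of the 10. A match is a run of letters and says nothing of binding, and the absence of one says only that these letters are not in the window.

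Lepr encodes the leptin receptor, which in mouse marrow marks the perivascular reticular cells, and spans chromosome 4, 101717407 to 101815354. It was at 7.09, 7.88, 9.62 and 10.1 CPM in burn anti-G-CSF, 7.48, 6.36, 4.77 and 7.97 CPM in burn isotype, and 6.29, 7.92, 8.92 and 10.7 CPM in sham isotype libraries. All groups overlapped, and the lowest library was a burn isotype one. The log2 fold change was -0.35 ± 0.20 for burn isotype against sham isotype (95% interval -0.77 to 0.08, adjusted p = 0.263) and 0.38 ± 0.20 for burn anti-G-CSF against burn isotype (-0.04 to 0.81, adjusted p = 0.146). Burn anti-G-CSF against sham isotype gave 0.04 ± 0.20 (-0.38 to 0.46, adjusted p = 0.939). Scaled by library size alone, the difference between the 2 burn groups was called (0.57 ± 0.20, adjusted p = 0.0308), but with that scaling the median of all genes was 0.26, against 0.083 with TMM.

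Kitl encodes stem cell factor, the ligand of the receptor KIT on stem cells, mast cells and early red cell precursors, and spans chromosome 10, 100015824 to 100100412. It was at 11.1, 8.84, 11.2 and 13.3 CPM in burn anti-G-CSF, 5.54, 5.59, 6.68 and 9.30 CPM in burn isotype, and 7.57, 9.29, 8.58 and 9.59 CPM in sham isotype libraries. The lowest 3 libraries of all were burn isotype ones, and replicate 8 of that group lay among the others. Kitl was higher in burn anti-G-CSF than in burn isotype libraries (log2 fold change 0.71 ± 0.18, adjusted p = 0.00644), though the groups overlapped. The difference was 0.38 ± 0.20 with the brain score in the fit (adjusted p = 0.215) and 0.57 ± 0.22 without replicates 9 and 12 (adjusted p = 0.0744), and it stayed called when any 1 library was left out (0.62 to 0.90).

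Burn isotype against sham isotype gave -0.37 ± 0.19 for Kitl (95% interval -0.76 to 0.02, adjusted p = 0.187). This difference was called with the brain score in the fit (-0.47 ± 0.16, adjusted p = 0.0322) and without replicate 8 (-0.56, adjusted p = 0.0381), and under no other alternative run. Burn anti-G-CSF against sham isotype gave 0.34 ± 0.18 (-0.04 to 0.73, adjusted p = 0.256). Within groups the slope of Kitl on the brain score was 0.42 ± 0.16 and did not pass the adjustment (adjusted p = 0.127).

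Csf1 encodes macrophage colony-stimulating factor, on which monocytes, macrophages and osteoclasts depend, and spans chromosome 3, 107741048 to 107760469. It was at 11.5, 14.4, 15.1 and 16.6 CPM in burn anti-G-CSF, 12.9, 14.5, 15.0 and 14.9 CPM in burn isotype, and 21.0, 22.3, 17.1 and 23.2 CPM in sham isotype libraries. Every sham isotype library was above all 8 burn libraries, and the 2 burn groups overlapped. Csf1 fell after burn with isotype (log2 fold change -0.55 ± 0.13, adjusted p = 0.00493) and was also lower in burn anti-G-CSF than in sham isotype libraries (-0.53 ± 0.13, adjusted p = 0.0188). The second call was lost without replicate 1, 2, 4 or 9 (adjusted p of 0.0564, 0.0656, 0.0627 and 0.0668), without replicates 9 and 12 together (0.192) and with the brain score (-0.56 ± 0.19, adjusted p = 0.621), while its size moved little. Between the burn groups, burn anti-G-CSF against burn isotype gave 0.01 ± 0.13 (95% interval -0.26 to 0.28, adjusted p = 0.954).

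Il7 encodes interleukin 7, a stromal cytokine that B cell precursors need in mice, and spans chromosome 3, 7572028 to 7613760. It was too low to test, with 9, 6, 11 and 4 counts in burn anti-G-CSF, 2, 8, 6 and 14 in burn isotype, and 10, 8, 8 and 8 in sham isotype libraries. The burn isotype libraries held both the lowest and the highest count. Il7 shares 105 exon bases (1.854% of its exon length) with the antisense gene Gm16685. Without any filter on low counts, no comparison of Bglap, Sp7 or Il7 had an adjusted p under 0.606.

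Counted over the members, 3 of the 7 tested were called in burn isotype against sham isotype, 1 higher and 2 lower, where 21.0% of all genes were called (11.1% higher, 9.92% lower). In burn anti-G-CSF against burn isotype 4 were called, 3 higher and 1 lower, beside 34.6% of all genes (17.7% higher, 16.9% lower). Burn anti-G-CSF against sham isotype called 2, Sparc higher and Csf1 lower, beside 11% of all genes (7.09% higher, 3.91% lower). With the brain score in the fit, burn isotype against sham isotype called 4 members, 1 higher and 3 lower, beside 24.4% of all genes (13.2% higher, 11.2% lower). Burn anti-G-CSF against burn isotype then called 2, 1 in each direction, beside 19.2% (8.97% higher, 10.2% lower). Burn anti-G-CSF against sham isotype called 0, beside 0.0720% (0.0589% higher, 0.0131% lower), and 2 members had an unadjusted p under 0.05 there. From the first to the third comparison, groups did not overlap for 3, 2 and 2 members, beside 24.7%, 28.9% and 17.0% of genes. The median log2 fold change of the tested members was -0.35, 0.38 and 0.17, beside -0.00024, 0.083 and -0.0047 over all genes. The comparisons share libraries, so a member low in burn isotype libraries is lower in one and higher in the other by construction.

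**Figure D2:**
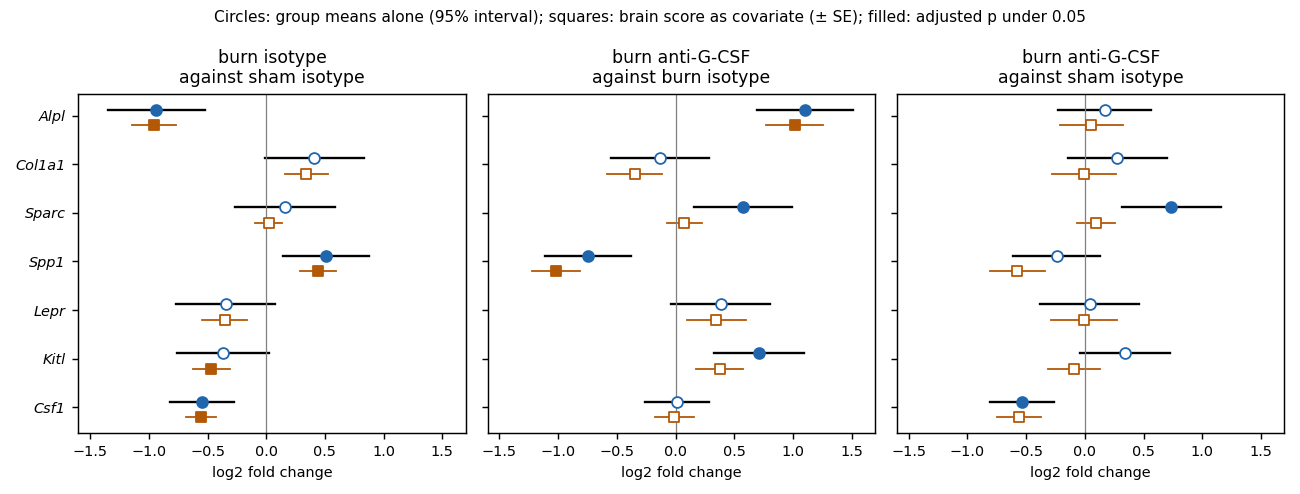
Log2 fold change of the 7 tested members in the 3 comparisons, from group means alone (circles, bars for the 95% interval) and with the brain score added (squares, bars for the SE), filled where the adjusted p was under 0.05. In burn anti-G-CSF against burn isotype, Alpl and Spp1 are filled in both fits, while Sparc is at 0.07 and Kitl at 0.38 with the score, against 0.58 and 0.71 without it.

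The brain score averages the log2 CPM values of 18 brain genes, and it was used to describe how far each member went with brain RNA from library to library inside a group. Sparc alone among the 7 was called, beside 10.3% of all genes (9% with a positive and 1.27% with a negative slope). The other slopes, in log2 units of the gene per log2 unit of the score, were 0.42 ± 0.16 for Kitl, 0.31 ± 0.16 for Spp1, 0.27 ± 0.19 for Col1a1, 0.11 ± 0.20 for Alpl, 0.05 ± 0.20 for Lepr and 0.03 ± 0.13 for Csf1. Genes of heart and lens had median slopes of 1.09 over 10 genes and 1.01 over 11 genes, beside -0.034 over all genes. Their sums were 528 to 1096 CPM (heart) and 174 to 366 CPM (lens) in burn anti-G-CSF, 221 to 614 CPM (heart) and 69.1 to 188 CPM (lens) in burn isotype, and 309 to 378 CPM (heart) and 93.8 to 122 CPM (lens) in sham isotype libraries. The brain score thus moved with transcripts of more than 1 other tissue.

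**Figure D3:**
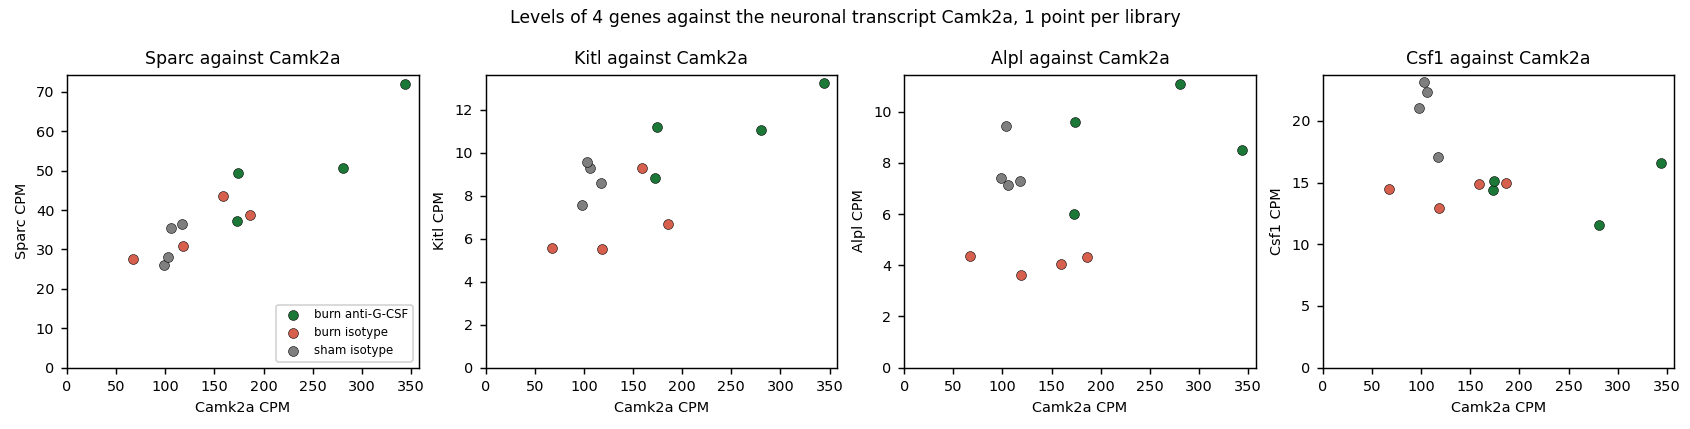
CPM of Sparc, Kitl, Alpl and Csf1 against Camk2a CPM, 1 point per library, coloured by group. Sparc is highest in the libraries with the most Camk2a, at 50.6 CPM in replicate 9 and 72.1 CPM in replicate 12. Replicate 11 has nearly as much Sparc as replicate 9 (49.5 CPM) with less Camk2a (174.1 CPM against 280.6 CPM). Csf1 in all 4 sham isotype libraries is above both burn groups.

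Per kilobase of exon, a scale on which genes can be set beside each other, Sparc was the most abundant member in each group, at 13.8 ± 3.84 CPM per kb in burn anti-G-CSF, 9.27 ± 1.93 in burn isotype and 8.30 ± 1.38 in sham isotype libraries (SD, n = 4 each). Spp1 was next, at 4.63 ± 1.24 CPM per kb in burn anti-G-CSF, 7.80 ± 0.690 in burn isotype and 5.48 ± 0.670 in sham isotype libraries. Csf1 was the third in each group, at 2.73 ± 0.401 CPM per kb in burn anti-G-CSF, 2.71 ± 0.179 in burn isotype and 3.96 ± 0.513 in sham isotype libraries. In sham isotype libraries Alpl followed (1.94 ± 0.268), and Kitl (1.48 ± 0.152), Col1a1 (1.23 ± 0.129) and Lepr (1.199 ± 0.261) were the next in this order, with overlapping ranges. Bglap stood at 0.301 ± 0.349 and Sp7 at 0.0381 ± 0.0363 CPM per kb there, and together with Il7 (0.0722 ± 0.00410) they were the least abundant members. Exon lengths are from GENCODE M21, whose spans of Alpl, Sparc and Spp1 among others differ from the deposited ones, so this order is approximate.

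Of 16 other genes of bone cells and matrix, 10 were tested, and Dmp1, Mepe, Sost, Bglap2, Bglap3 and Dlx5 were below the filter. Burn isotype against sham isotype called 0 of the 10, beside 21.0% of all genes, with edgeR, DESeq2 and limma-voom alike, and 1 had an unadjusted edgeR p under 0.05. Smpd3, a sphingomyelinase needed for bone mineralisation, was the 1 gene called higher in burn anti-G-CSF than in burn isotype libraries (0.95 ± 0.25, adjusted p = 0.00660) and than in sham isotype libraries (0.90 ± 0.25, adjusted p = 0.0292). These counts of 1 in 10 stand beside 34.6% and 11% of all genes. With the brain score the Smpd3 values were 0.30 (adjusted p = 0.424) and 0.06 (adjusted p = 0.998), and its slope on the score was 0.78 ± 0.18 (adjusted p = 0.00702). Runx2 was at -0.21 ± 0.10 in burn isotype against sham isotype (adjusted p = 0.142) and -0.01 ± 0.10 in burn anti-G-CSF against burn isotype (adjusted p = 0.945). Its group means were 59.0 CPM in burn anti-G-CSF, 59.5 CPM in burn isotype and 68.8 CPM in sham isotype libraries. Those of Bglap and Sp7 were at most 0.286 and 0.174 CPM, and which cells the Runx2 RNA came from was not tested.

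Of 17 stromal cell genes listed, 16 were tested (all but Grem1). In burn isotype against sham isotype 0 were called, beside 21.0% of all genes, by edgeR, DESeq2 or limma-voom, with 1 at an unadjusted edgeR p under 0.05. In burn anti-G-CSF against burn isotype 4 were higher and 0 lower, beside 17.7% of all genes higher and 16.9% lower, a share of the list near that of all genes. They were Lum and Dcn, small proteoglycans of connective tissue, Lpl, a lipase of fat and muscle, and Cspg4, a pericyte proteoglycan. Their values were 1.06 ± 0.27 (adjusted p = 0.00597), 0.91 ± 0.32 (0.0461), 0.93 ± 0.21 (0.00533) and 1.22 ± 0.44 (0.0385). Against sham isotype these 4 and Pdgfra (0.93 ± 0.25, adjusted p = 0.0282), a receptor of mesenchymal cells, were higher, beside 7.09% of all genes. The list's median log2 fold change was -0.01, 0.53 and 0.40 in the 3 comparisons and -0.17, 0.10 and -0.04 with the brain score, where the only calls were Lpl, lower after burn with isotype (-0.26, adjusted p = 0.0236) and higher with the antibody (0.31, adjusted p = 0.0492). Within groups 6 of the 16 (Col3a1, Dcn, Lpl, Lum, Pdgfra and Postn) were called as rising with the score, with slopes of 0.70 to 1.25. Beside them, 9% of all genes had a called positive slope. Cxcl12, the chemokine that retains stem cells and neutrophils in marrow, was at -0.28 ± 0.25 (adjusted p = 0.501) and 0.29 ± 0.25 (adjusted p = 0.399) in the comparisons with burn isotype.

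**Figure D4:**
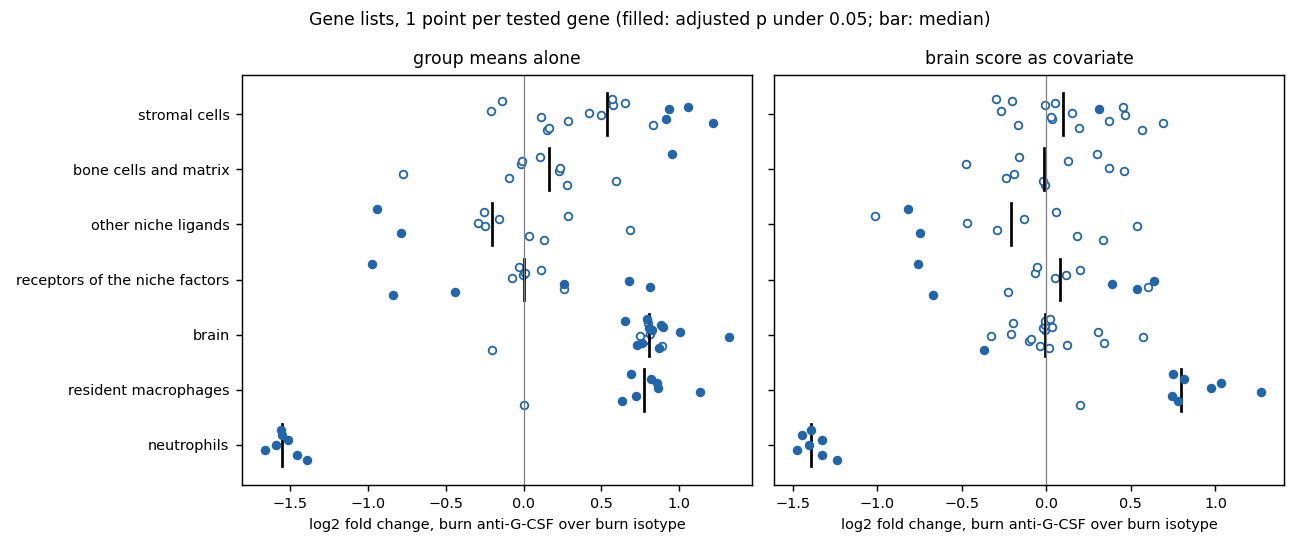
Log2 fold change of every tested gene of 7 lists (stroma, bone, other ligands, receptors, brain, resident macrophages and neutrophils; vertical bars, medians) in burn anti-G-CSF against burn isotype, from group means alone and with the brain score added. The stromal list has a median of 0.53 from group means and 0.10 with the score.

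Receptors of the niche factors and their signalling partners were well counted, and 6 of 12 were called in burn isotype against sham isotype, beside 21.0% of all genes. Between the burn groups 6 were also called, beside 34.6% of all genes. Csf1r, the receptor of CSF1 (0.62 ± 0.13, adjusted p = 0.00258), Cd44, a receptor of osteopontin (0.50 ± 0.10, adjusted p = 0.00172), and Stat3, a transcription factor downstream of many cytokines (0.71 ± 0.10, adjusted p = 6.21e-05), were higher in burn isotype than in sham isotype libraries. Il7r, the interleukin 7 receptor of lymphoid precursors (-1.08 ± 0.23, adjusted p = 0.00538), Il2rg, its partner chain (-0.34 ± 0.10, adjusted p = 0.0221), and Itga9, an integrin chain that binds osteopontin (-0.56 ± 0.17, adjusted p = 0.0233), were lower. In burn anti-G-CSF against burn isotype Il7r (0.81 ± 0.23, adjusted p = 0.0175), Itga9 (0.68 ± 0.17, adjusted p = 0.00507) and Itga4, another integrin chain (0.26 ± 0.09, adjusted p = 0.0318), were higher. Stat3 (-0.97 ± 0.10, adjusted p = 7.48e-07), Cd44 (-0.84 ± 0.10, adjusted p = 6.55e-06) and Csf1r (-0.44 ± 0.13, adjusted p = 0.0170) were lower there. Kit, the receptor of the Kitl product, was at -0.14 ± 0.10 (adjusted p = 0.359) and -0.03 ± 0.10 (adjusted p = 0.835) in these comparisons. With the brain score, Il7r (0.60, adjusted p = 0.217) and Csf1r (-0.23, adjusted p = 0.346) were no longer called between the burn groups, while Il2rg became called there (0.54, adjusted p = 3.17e-04, against 0.26 and 0.0535 without the score). Itgav, an integrin chain, became called higher in burn isotype against sham isotype (0.28, adjusted p = 0.0271). Cd44 was the 1 receptor called in burn anti-G-CSF against sham isotype (-0.34 ± 0.10, adjusted p = 0.0390), beside 11% of all genes, and it was not called with the brain score (-0.13, adjusted p = 0.992).

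Among 13 other ligands of the marrow, 10 were tested, and 1, 2 and 2 were called in the 3 comparisons, beside 21.0%, 34.6% and 11% of all genes. Tnfsf13b, the B cell survival factor BAFF, was higher after burn with isotype (0.38 ± 0.13, adjusted p = 0.0489) and lower in burn anti-G-CSF than in burn isotype (-0.94 ± 0.14, adjusted p = 3.81e-05) and sham isotype libraries (-0.55 ± 0.14, adjusted p = 0.0198), the last not called with the brain score (-0.40, adjusted p = 0.881). Il15, a cytokine of natural killer and T cells, was lower in burn anti-G-CSF than in burn isotype libraries (-0.79 ± 0.16, adjusted p = 0.00122). Il34, the second ligand of the CSF1 receptor and a product of neurons and skin, was higher in burn anti-G-CSF than in sham isotype libraries (1.38 ± 0.38, adjusted p = 0.0304). Its value with the brain score was 0.03 (adjusted p = 0.998).

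The 3 tested osteoclast genes did not share a direction. Acp5, a phosphatase of osteoclasts and some macrophages, was at -0.77 ± 0.13 in burn isotype against sham isotype (adjusted p = 5.56e-04) and 0.72 ± 0.13 in burn anti-G-CSF against burn isotype (adjusted p = 5.18e-04). Ctsk, the collagen-cleaving protease cathepsin K, was at 0.65 ± 0.37 (adjusted p = 0.247) and -0.88 ± 0.37 (adjusted p = 0.0748) in the same comparisons. Atp6v0d2, a proton pump subunit, was at 0.71 ± 0.54 (adjusted p = 0.404) and -0.65 ± 0.53 (adjusted p = 0.366). The list medians were 0.65 and -0.65, of the opposite sign to Acp5.

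The genes whose log2 CPM was most like each member's over the 12 libraries differed between members. For Alpl they were Mylk3, Lef1 and Wbscr27, with Pearson correlations of 0.95 each, and for Kitl Bcl11b, Plxna1 and Apold1 (0.95, 0.95 and 0.93). Sparc was most like Tead1, Ube2ql1 and Pak3 (0.98, 0.96 and 0.96). Csf1 was most like Zhx2, Gata2 and Amica1 (0.93, 0.91 and 0.89), and Spp1 like Cdadc1, Cstb and Dync2li1 (0.91 each). After group means were subtracted the first gene was Blcap for Alpl (0.96), Tead1 again for Sparc (0.97), Lix1l for Kitl (0.94), Flnc for Csf1 (0.90) and Unc13b for Spp1 (0.92). Lepr was most like Tbc1d10a (0.92) and Col1a1 most like Paqr3 (0.88). Each value is among the 3 highest of 14316 genes over 12 libraries that share their group structure and brain level, and serves as a description.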

How the data were processed

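Counts per gene of 12 libraries were analysed as the authors deposited them, whole and not normalised. The submitters' processing notes name TopHat2, an aligner, and the mouse build mm10. How reads were counted, with what strand setting and annotation, is not given in the sources used here. Per the labels' protocols, polyadenylated RNA was selected and the library kit kept strand.

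The groups came from the labels. Where these do not state separate mice, p-values measure the spread between libraries, which may be technical. Genes were filtered with filterByExpr of edgeR 4.0.16 in R 4.3.3 (minimum count 10), leaving 15283 of 24415. They were scaled by TMM and fitted with glmQLFit on the 3 groups, and 3 contrasts were tested with Benjamini-Hochberg adjustment at 0.05. A second fit added the brain score (mean log2 CPM of 18 brain genes, prior count 2). DESeq2 1.42.0 and limma 3.58.1 were alternatives. Scripts were tested on simulated data. Intervals on log2 fold changes are 95%, and limits from a count of 0 use 3 counts and cover counting error only. Exon lengths and overlaps came from GENCODE M21 and promoters from RefSeq on GRCm38.p6, with deposited starts raised by 1 base.

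Members and gene lists were chosen with earlier results of these data known. The text names the 10 members, Camk2a, up to 3 genes per list with the smallest p in each comparison, every called gene of the bone, stroma, receptor and other ligand lists, and the genes most like each member. Cxcl12, Kit and the 6 stromal genes that rose with the brain score were named after their values were seen.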

Additional observations from a re-analysis of the deposited data

Results flagged for a closer look

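Among 30 groups of 4 libraries (10 members in 3 groups), 2 held a library far from the other 3, by a gap past Dixon's 95% critical value, which chance gives in about 1 of 20 groups. Alpl in sham isotype replicate 4 was at 9.44 CPM, while the other 3 sham isotype libraries were at 7.16 to 7.39 CPM. Without it, Alpl was still lower in burn isotype than in sham isotype libraries (log2 fold change -0.85 ± 0.21, edgeR adjusted p = 0.00969). Bglap in sham isotype replicate 2 was at 0.507 CPM, or 10 counts, while the other 3 were at 0.0490 to 0.0989 CPM, or 1 to 2 counts.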

How the results depend on the processing

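Of 581 member values under alternatives, 516 kept their direction and side of the threshold, 40 were no longer called, 3 became called and 22 changed sign. Alpl in both comparisons with burn isotype, Spp1 between the burn groups and Csf1 after burn were called in every alternative run. Members called in burn anti-G-CSF against sham isotype numbered 1 without a filter and 0 with the brain score, without replicates 9 and 12, or at an adjusted p of 0.01, by edgeR (unadjusted p under 0.05 for 2, 3 and 2), and 0 to 2 with 1 library left out. DESeq2 and limma-voom called 2 each. With the brain score, 2936 genes were called between the burn groups (2 members) and 11 in burn anti-G-CSF against sham isotype. Without replicates 9 and 12 the counts were 3019 (2 members) and 35. At 0.01 they were 1968 in burn isotype against sham isotype, 3113 between the burn groups and 142 in burn anti-G-CSF against sham isotype. At 0.05 the last comparison called 1681 genes, and 349 to 2271 with 1 library left out.

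Values that changed sign were all uncalled. In burn anti-G-CSF against burn isotype, Csf1 was -0.019 with DESeq2 size factors, -0.018 with DESeq2, -0.017 with only the 2 groups fitted and -0.011 with the brain score, and Col1a1 was 0.043 scaled by library size alone. In burn anti-G-CSF against sham isotype the brain score gave -0.091 for Kitl, -0.0061 for Col1a1 and -0.0054 for Lepr, and leaving out replicates 9 and 12 gave -0.0017 for Alpl. With 1 library left out, Col1a1 ran from -0.23 to 0.066 and Csf1 from -0.050 to 0.12 between the burn groups, and Lepr from -0.081 to 0.18 against sham isotype. Slopes on the brain score ran from -0.063 to 0.31 for Alpl, -0.093 to 0.075 for Csf1 and -0.10 to 0.25 for Lepr. The causes were not tested. Scaled by library size alone, the calls split 5756 higher and 1673 lower between the burn groups (2702 and 2582 with TMM), 1276 and 2846 in burn isotype against sham isotype (1691 and 1516 with TMM), and 1290 and 376 in burn anti-G-CSF against sham isotype (1083 and 598 with TMM). Between the burn groups, upper quartile scaling gave 3769 and 2193. The medians of all genes moved to 0.26, -0.10, 0.08 and 0.15 in these 4 cases.

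No paired analysis was possible because the labels number the libraries 1 to 12 and no number is shared between groups. Depth limits Bglap, Sp7 and Il7, which had 0 to 14 counts per library.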
